A study of Mus musculus with 17 samples.

Results

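Folr2 macrophages of mouse skin were examined in 8 single-cell RNA libraries of sorted PDGFR-β+GFP+ cells. A cell was a member when at least 200 genes and at most 20% of UMIs (unique molecular identifiers, 1 per captured RNA molecule) from mitochondrial genes were recorded, C1qa, C1qb and C1qc together had at least 5 UMIs, Folr2, Cbr2 and Ccl8 together at least 3, and Mmp12 and Ear2 together at most 2. This selected 2529 of the 30085 skin cells that met the limits on genes and mitochondrial UMIs (kept cells), or 8.41%. They were 49.2% of the 5141 kept cells with at least 5 C1q UMIs (C1q cells). The members were therefore chosen on the measured UMIs of these 8 genes, so the levels of those genes are given as a description, without a test.

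Macrophages are tissue phagocytes that take up dead cells, proteins and lipids, present peptides on MHC class II molecules and release chemokines, growth factors and complement proteins. In the dermis, macrophages with the folate receptor Folr2, the carbonyl reductase Cbr2 and the chemokine Ccl8 are known as a long-lived resident population, often close to vessels and nerves, whereas other dermal macrophages are replaced from blood monocytes. Residence in the tissue was not measured here, so the cells are called by their genes.

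All 8-week-old mice carried the Z/EG reporter and Cre recombinase behind the PDGFRb promoter, so the GFP and the Cre were shared by every group, controls included. SARAWT mice had no further allele, and SARATg mice also carried a human ZFYVE9 (SARA) cDNA in the Rosa26 locus behind a CAG promoter and a floxed stop. Bleomycin, a DNA-damaging antibiotic used to induce skin fibrosis, was injected under the skin at 20 mg/kg in PBS for 2 weeks, 3 times a week by the labels and daily by the study's methods, and PBS alone was the control treatment. The study's methods place the harvest 1 week after the end of the injections. There were 3 libraries of SARAWT PBS, 3 of SARAWT bleomycin, 1 of SARATg PBS and 1 of SARATg bleomycin. The PDGFRb promoter is also active in leukocyte lineages in the embryo, and Pdgfrb RNA itself averaged 2.51 CPM with PBS and 0.962 CPM with bleomycin in members of the SARAWT libraries. CPM are counts per 1000000 UMIs of the genes shared by both gene lists used, summed over the members of a library. The labels do not tie libraries to animals, and the study speaks of independent experiments, but which mice entered each library is not given in the sources used here, so p-values measure the spread between these libraries, which may be technical in part.

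SARAWT PBS 1, 2 and 3 held 956, 77 and 187 members. SARAWT bleomycin 1, 2 and 3 held 302, 260 and 306, SARATg PBS held 157 and SARATg bleomycin 284. Their median depth was 7326, 5701 and 10535 UMIs per cell in SARAWT PBS 1, 2 and 3 and 11725.5, 12234.5 and 13013.5 in SARAWT bleomycin 1, 2 and 3. It was 8702 in SARATg PBS and 11291 in SARATg bleomycin. Members were thus deeper in every bleomycin library, and under fixed UMI limits deeper cells can enter at a lower relative level. In the comparisons across genes members were always chosen at full depth, so the part of this in their results was not tested. The summed UMIs per library were between 497303 and 7637274. SARAWT PBS 2 was the shallowest library, with a median of 1271 UMIs per kept cell against 6449 to 11292.5 in the other 7.

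Several libraries stood apart from their labels or from each other. In members, the human ZFYVE9 entry had 1065 CPM in the library labelled SARAWT PBS 1, against 195 CPM in SARAWT PBS 2 and 72.3 and 87.7 CPM in SARAWT bleomycin 1 and 2, and the gene lists of the other 4 libraries have no such entry. Mouse Zfyve9 had 630 CPM in the library labelled SARAWT PBS 3, 402 CPM in SARATg PBS and 189 CPM in SARATg bleomycin, against 5.16 to 21.6 CPM in the other 5 libraries. Where the gene list has no human entry, RNA of the mouse gene and of the human cDNA cannot be told apart in these counts. The human entry was found in 91.3% of members of SARAWT PBS 1, 49.4% of SARAWT PBS 2 and 45.4% and 53.5% of SARAWT bleomycin 1 and 2, although SARAWT mice should lack it. Whether these cells carried the transgene or free RNA was not tested, so no SARAWT library of the longer gene list is free of doubt. The levels were highest in the libraries labelled SARAWT PBS 1 and SARAWT PBS 3, which go against their labels. The 3 comparisons across genes are given below also without both, an alternative chosen for 2 of the 3 after seeing the data. For those 2 only the direction of the calls is given. Without both libraries SARAWT PBS rests on SARAWT PBS 2 alone, with 77 members and the human entry. Of these members 39 share a barcode with SARAWT bleomycin 2.

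Libraries 1 and 2 of both SARAWT groups were counted on a longer gene list (32286 genes) than the other 4 (31053 genes). In members of the longer list Xist, the RNA of the inactive X chromosome, had 490.3 to 677 CPM and the Y-linked Ddx3y 0. In members of the shorter list Xist was 0 and Ddx3y had 72.1 to 106 CPM. Gene list and sex-linked expression thus split the libraries the same way and cannot be told apart. Both SARAWT treatments held 2 libraries of the longer list and 1 of the shorter list. Both SARATg libraries were on the shorter list.

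Cell barcodes were also shared. Of the 77 members of SARAWT PBS 2, 39 (50.6%) had a barcode also present in another skin library. All 39 were kept cells of SARAWT bleomycin 2, with 21 of them members there, and 27 were kept cells of SARAWT bleomycin 1. The sharing thus crossed the treatments. Such members were 21 in SARAWT PBS 1, 35 in SARAWT bleomycin 1 and 34 in SARAWT bleomycin 2. The other 4 libraries had 0 to 3 such members. Markers of another cell type (at least 3 of 5 from a list) were present in 313 members (12.4%), of which 182 carried fibroblast markers and 94 skeletal muscle markers. SARATg PBS had the highest share, with 70 of 157 members (44.6%), against 7.19% to 11.9% in the other 7 libraries. T cells, which should lack these genes, gave a measure of free RNA, at medians of 6038 to 8798 UMIs per T cell. A Ccl8 UMI was found in 13.6% to 19.5% of them where the longer list was used (4 libraries, of which SARAWT PBS 2 held 7 T cells) against 0.662% to 3.97% elsewhere, but 0% to 2.30% passed the limit of 3 UMIs over Folr2, Cbr2 and Ccl8.

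Ccl8 carried most of the UMIs behind the choice of members. The median member had 15 to 62 UMIs of Ccl8 per library, 2 to 7 of Cbr2 and 1 to 4 of Folr2. A Folr2 UMI was found in 60.8% (SARAWT bleomycin 3) to 85.8% (SARAWT PBS 1) of members, so the others passed on Cbr2 and Ccl8. Summed over members, Ccl8, a chemokine that binds CCR2 and other receptors, had 10863, 12359 and 5089 CPM with PBS and 12133, 19067 and 7290.3 CPM with bleomycin. Folr2 (ENSMUSG00000032725, chr7:101839988-101857194 on GRCm38) had 745, 493 and 301 CPM with PBS and 364, 488 and 223 CPM with bleomycin. Cbr2 (ENSMUSG00000025150, chr11:120729489-120732114) had 952, 749.7 and 673 CPM with PBS and 488, 788 and 406 CPM with bleomycin. The groups overlapped for all 3 genes. In SARATg, PBS and bleomycin members had 12592 and 7481 CPM of Ccl8, 461 and 370.03 CPM of Folr2, and 866 and 745 CPM of Cbr2.

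C1qa, C1qb and C1qc encode the chains of complement C1q, and each was found in at least 97% of members in every library. C1qb had 2428, 2591 and 2391 CPM with PBS and 4579.9, 4455 and 3398 CPM with bleomycin. For C1qa and C1qc the groups overlapped, at 2756 ± 493 CPM with PBS and 3883 ± 663 CPM with bleomycin for C1qa and 2045 ± 382 CPM with PBS and 2568 ± 429 CPM with bleomycin for C1qc (mean ± SD, n = 3 libraries each). Mmp12 and Ear2, whose high counts were excluded, reached at most 4.33 and 9.71 CPM. At the limits of the rule, 112 members had exactly 3 UMIs of Folr2, Cbr2 and Ccl8, and 154 cells with 2 were left out. With 5 C1q UMIs 24 members were just inside and with 4 UMIs 34 cells just outside, and with 2 UMIs of Mmp12 and Ear2 29 members were inside and 21 cells with 3 UMIs outside.

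Against all other kept skin cells, the members had their largest ratios at the genes of the rule and at a set the rule did not use. Pf4, a platelet-type chemokine also made by resident macrophages, had 2366 ± 647 CPM against 62.2 ± 28.5 CPM in the other cells (mean ± SD over 8 libraries). F13a1, the A chain of coagulation factor XIII, had 1566 ± 634 CPM against 62.7 ± 8.78 CPM. The histidine ammonia-lyase Hal had 1024 ± 706 CPM against 37.4 ± 12.3 CPM, and the chemokine Ccl12 488 ± 233 CPM against 16.9 ± 14.3 CPM. These values describe cells that were selected on expression, so they carry no test.

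Among the other genes of the leading 25, the mannose receptor Mrc1 had 2505 ± 759.9 CPM against 277 ± 27.4 CPM, the scavenger receptor Stab1 247 ± 62.9 CPM against 8.87 ± 5.37 CPM and the endocytic adaptor Dab2 824 ± 210.5 CPM against 72 ± 10.6 CPM. Apolipoprotein E (Apoe) had 12868 ± 3941 CPM against 1166 ± 490.1 CPM and the selenium carrier Selenop 3242 ± 1134 CPM against 226 ± 103 CPM. Also among the 25 were Ms4a7, Fxyd2, Ccl7, Wwp1, Lgmn, Il10, C3ar1 and Igf1. Cd209f, a C-type lectin, had the largest ratio of the 25 between its highest and lowest library, from 0.511 to 707 CPM in members. Of the general macrophage genes, Csf1r, the receptor for colony-stimulating factor 1, had 637 ± 69.5 CPM against 106 ± 36 CPM, Adgre1 (F4/80) 578 ± 92.7 CPM against 90.8 ± 26.7 CPM and Cd68 481 ± 66.8 CPM against 124 ± 30.2 CPM. These 3 genes were at 514, 429 and 382 CPM or more in members of every library.

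**Figure D1:**
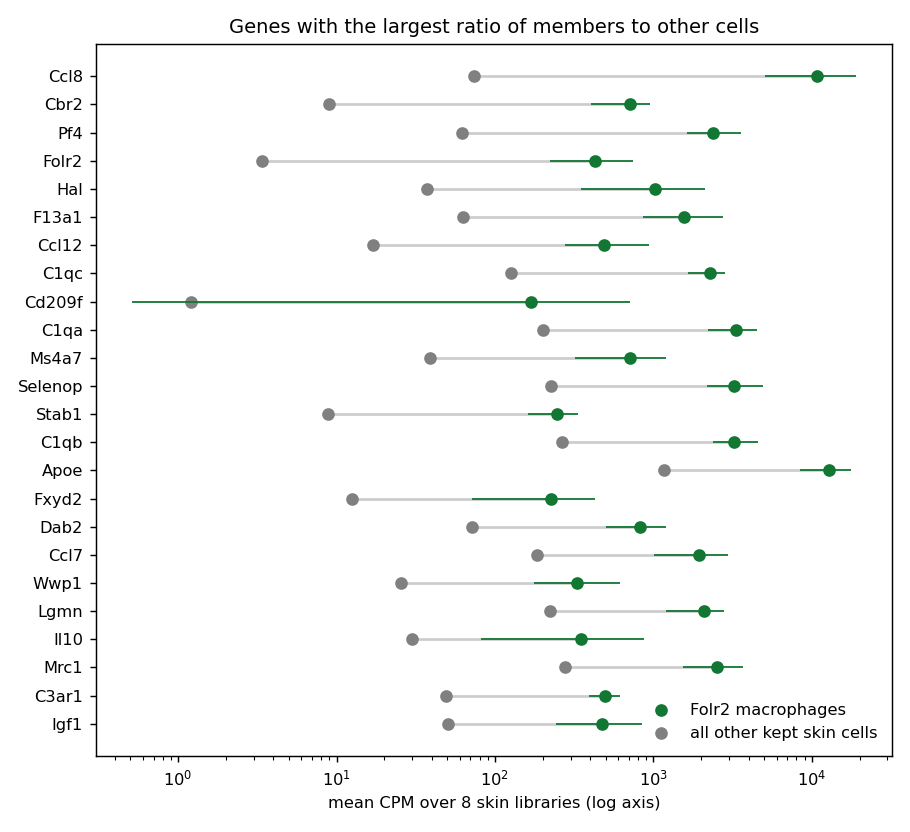
Mean CPM over 8 skin libraries (log axis) of 24 of the 25 genes with the largest ratio between Folr2 macrophages (green) and all other kept skin cells (grey). Green bars span the lowest to the highest library. Ccl8, Cbr2, Folr2, C1qa, C1qb and C1qc were used to choose the members. Cd209f has the widest span on the log axis, 0.511 to 707 CPM.

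Markers of other cell types were detected in members, and each list of 5 had all its genes detected in at least 1 library. Summed over the 5 fibroblast markers, members had 152 to 884 CPM in SARAWT PBS and 31.3 to 951 CPM in SARAWT bleomycin. Keratinocyte markers summed to 8.08 to 639 and 3.83 to 8.68 CPM, muscle markers to 85 to 199.6 and 78.7 to 787 CPM, neutrophil markers to 36.4 to 418 and 62.8 to 105 CPM, and dendritic cell markers to 73.4 to 501 and 12.9 to 41.9 CPM. T cell, mast cell, Langerhans cell, endothelial and mural lists stayed at or under 140.1 CPM in every SARAWT library. The summed level of the 15 monocyte genes, most of it Lyz2, was 3668 to 5278 CPM with PBS and 8636 to 9654 CPM with bleomycin, and 4760.3 against 8009 CPM in SARATg. The part of these sums in the results below was not tested, with 1 exception. For the shares and for bleomycin against PBS, the members with markers of another cell type were left out in an alternative. The states, the difference between cell classes and the genotype comparison were not repeated without these members.

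The first comparison asked whether the population became smaller or larger with bleomycin. Folr2 macrophages were 84.9, 68.8 and 47.8% of the C1q cells in the PBS samples 1, 2 and 3 of SARAWT, and 46.9, 51.6 and 32.3% in its bleomycin samples. Means (± SD, n = 3) were 67.2% ± 18.6 for PBS against 43.6% ± 10.03 for bleomycin, a difference of -23.6 percentage points that did not pass a two-sided exact permutation test (p = 0.2, where the smallest p for 3 against 3 is 0.1). The groups overlapped, because SARAWT PBS 3 lay at 47.8% and SARAWT bleomycin 2 at 51.6%. Within the longer gene list the PBS libraries (84.9% and 68.8%) were above the bleomycin libraries (46.9% and 51.6%), and within the shorter list 47.8% stood against 32.3%. In SARATg the share was 44.9% with PBS (95% exact interval 39.6% to 50.2%) and 26.6% with bleomycin (24% to 29.4%). Without the members that carried markers of another cell type, 44.6% of those of SARATg PBS, it was 31.1% with PBS and 24.9% with bleomycin. These intervals cover counting error only.

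Among all kept cells no direction was apparent. The share was 23.5, 9.86 and 4.03% with PBS and 14, 12 and 4.67% with bleomycin in SARAWT, with means of 12.4% ± 9.97 and 10.2% ± 4.91 (SD, n = 3 each, two-sided exact permutation p = 0.9). It was 3.45% (95% exact interval 2.94% to 4.02%) in SARATg PBS and 5.5% (4.89% to 6.16%) in SARATg bleomycin, and without the members that carried markers of another cell type 1.94% and 5.06%. Without the library labelled SARAWT PBS 1 the difference turned from -2.22 to 3.28 percentage points, and without SARAWT bleomycin 3 to 0.554. Both measures are shares of sorted GFP+ cells, so the sort and the numbers of the other cell types enter them.

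**Figure D2:**
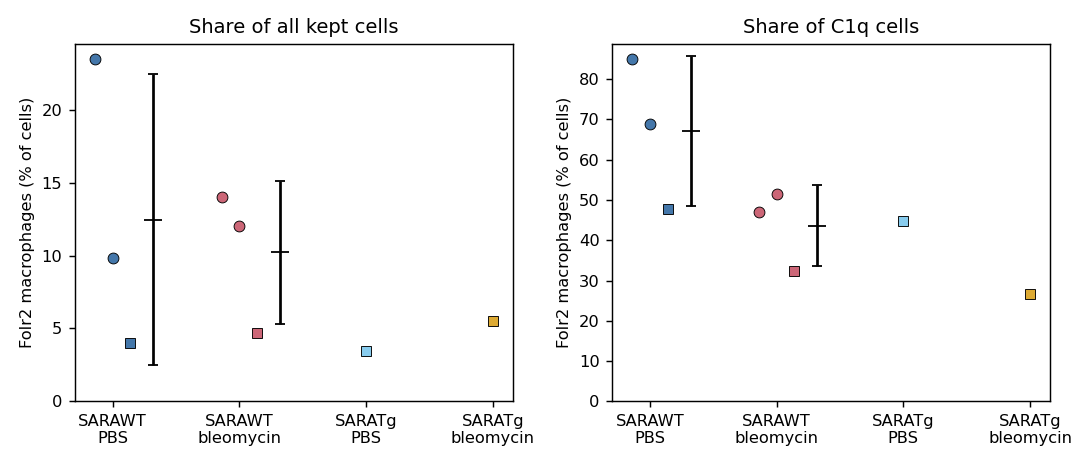
Folr2 macrophages as a percentage of all kept cells (left) and of C1q cells (right), 1 point per library. Circles are libraries of the longer gene list and squares of the shorter list, and black bars give the mean ± SD of the 3 SARAWT libraries. The share of C1q cells is lower with bleomycin in each pair of SARAWT libraries with the same number, but the groups overlap.

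Within the members, bleomycin was compared with PBS in the 6 SARAWT libraries, with edgeR's quasi-likelihood test on summed UMIs and Benjamini-Hochberg adjustment over 10063 genes. Fcgr4, Clec12a, Cd72, Irf7, Ifi44, Cx3cr1 and Ctss were among the 21 higher genes, and Ednrb, Tfrc and Hbegf among the 7 lower ones. Of all genes tested 21 were higher (0.209%) and 7 lower (0.0696%) at an adjusted p of 0.05, and 1445 had an unadjusted p under 0.05. With the replicate number as a block 275 genes passed, 169 higher (1.59%) and 106 lower (0.995%), all 28 among them. The CPM of the 28 did not overlap between the treatments, as in 7.17% (higher) and 13.3% (lower) of all genes tested. A sum over members does not tell a change in every cell from a change in the share of cells that express a gene.

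These calls rested on few libraries. Without the library labelled SARAWT PBS 1, without SARAWT bleomycin 1 or without SARAWT bleomycin 2 no gene passed. When SARAWT PBS 2 was left out 4 genes passed (Cx3cr1, Spon1, Krt79 and Tpm3-rs7). When the library labelled SARAWT PBS 3 was left out 212 passed. Without SARAWT bleomycin 3 it was 89, with 26 of the 28 kept. Without both libraries labelled SARAWT PBS 1 and SARAWT PBS 3, SARAWT PBS is a single library. Its spread is then not measured, so no count of genes is read from that fit. All 28 kept their direction in each of these fits. None of the 28 differed by 4 times or more between the gene lists. Other choices of cells ended some calls: Clec12a, Ednrb, Hbegf, Rapsn and Smpdl3b did not pass without the members that shared barcodes, nor Ehf, Sirpb1a and Itgal with a stricter gate, nor Cx3cr1, Limd2, Lgals3bp and Gpr65 after thinning to 1000 UMIs. Their adjusted p was then 0.051 to 0.176 with edgeR, and the log2 fold changes were close to those of the 6 libraries with all members for most of them, such as -2.49 against -2.62 for Ednrb and 2.17 against 2.00 for Clec12a. The widest gap was that of Cx3cr1, at 2.10 against 2.80.

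Of the 21 higher genes, Fcgr4, an activating receptor for IgG, had 26.9, 16.2 and 34.5 CPM with PBS and 283, 202 and 143 CPM with bleomycin (log2 fold change 3.03, SE 0.336, adjusted p = 0.0338). Clec12a, an inhibitory lectin that senses dead cells, had 47.8, 54.6 and 74.8 CPM with PBS and 274, 201 and 198 CPM with bleomycin (log2 fold change 2.00, SE 0.26, adjusted p = 0.0338). Every bleomycin library was above every PBS library for both genes. Cd72, a lectin-type coreceptor, had 51.4, 24.2 and 46.6 CPM with PBS and 310.3, 162 and 216 CPM with bleomycin (log2 fold change 2.52), and Lst1, a small myeloid membrane protein, 272, 228 and 208 CPM with PBS and 825, 601 and 598 CPM with bleomycin (log2 fold change 1.60).

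The paired receptors Sirpb1b and Sirpb1a, which signal through the adaptor DAP12, moved in the same direction. Sirpb1b had 4.21, 2.02 and 5.83 CPM with PBS and 65.5, 49.2 and 25 CPM with bleomycin, and Sirpb1a 0.395, 0 and 1.46 CPM with PBS and 14.7, 7.45 and 11.7 CPM with bleomycin. Both lie on chromosome 3 and are near-identical copies, so counts may be split between them and each value alone is uncertain. Cd300e, an activating receptor of monocytes, had 0 UMIs in all 3 SARAWT PBS libraries and 15, 7.77 and 11.2 CPM with bleomycin. The bleomycin mean is at least 38.3-fold higher when 3 counts over the pooled PBS group are taken as the floor. Most UMIs of that pool came from the library labelled SARAWT PBS 1. The 0 of SARAWT PBS 2, with 497303 UMIs in members, sets a weaker limit. In SARATg Cd300e was at 0 CPM with PBS and 1.55 CPM with bleomycin.

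Of the 24 interferon-response genes tested, Irf7 and Ifi44 were higher. Irf7, a transcription factor that amplifies type I interferon expression, had 47.7, 66.7 and 83.6 CPM with PBS and 356, 327 and 271 CPM with bleomycin (log2 fold change 2.35, SE 0.272, adjusted p = 0.0338). Ifi44, an interferon-induced gene, had 3.42, 6.06 and 4.37 CPM with PBS and 41.3, 41.4 and 17.6 CPM with bleomycin (log2 fold change 3.14, SE 0.436, adjusted p = 0.0389). Ly6a (Sca-1), also inducible by interferon and close in sequence to Ly6i, had 137, 95 and 205 CPM with PBS and 1277, 1053 and 556 CPM with bleomycin (log2 fold change 2.79, SE 0.378, adjusted p = 0.0389). Lgals3bp, a secreted galectin-binding glycoprotein, had 101, 68.7 and 85.5 CPM with PBS and 346, 269 and 241 CPM with bleomycin (log2 fold change 1.82, SE 0.221, adjusted p = 0.0338). SARAWT bleomycin 3 was the lowest bleomycin library for all 4 genes and still above every PBS library.

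Cathepsin S (Ctss), which trims the invariant chain of MHC class II, had 1163, 1229 and 1197 CPM with PBS and 3651, 2698 and 2979.8 CPM with bleomycin (log2 fold change 1.46, SE 0.185, adjusted p = 0.0338). Every bleomycin library was above every PBS library.

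Cx3cr1, Itgal and Plac8 were also higher with bleomycin. The fractalkine receptor Cx3cr1 had 22.8, 2.02 and 15.5 CPM with PBS and 111, 99.1 and 107 CPM with bleomycin (log2 fold change 2.80, SE 0.407, adjusted p = 0.0415). Itgal, the alpha chain of the integrin LFA-1, had 6.19, 10.1 and 8.75 CPM with PBS and 38.9, 26.2 and 29.1 CPM with bleomycin (log2 fold change 2.13, SE 0.307, adjusted p = 0.0414). Plac8, a gene of monocytes and other blood myeloid cells, had 67.9, 42.4 and 21.9 CPM with PBS and 500.02, 469.5 and 215 CPM with bleomycin (log2 fold change 3.24, SE 0.455, adjusted p = 0.0406). In none of these did the groups overlap.

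The proton-sensing receptor Gpr65 had 15.8, 20.2 and 27.2 CPM with PBS and 92.9, 77.7 and 64.9 CPM with bleomycin (log2 fold change 2.00). Limd2 had 26.5, 26.3 and 32.1 CPM with PBS and 101, 79.7 and 62.8 CPM with bleomycin (log2 fold change 1.60). Spon1, which encodes the matrix protein F-spondin, had 11.5, 2.02 and 10.2 CPM with PBS and 59.5, 56.3 and 60.5 CPM with bleomycin (log2 fold change 2.73). The calcium channel subunit gene Cacna1a and the receptor-clustering gene Rapsn, best known from neurons and muscle, had low levels, at 1.58, 0 and 0.486 CPM with PBS and 16.3, 21 and 18.6 CPM with bleomycin for Cacna1a and 5.27, 4.04 and 8.75 CPM with PBS and 46.6, 31.4 and 27.1 CPM with bleomycin for Rapsn. Summed muscle markers in the same members were 85 to 199.6 CPM with PBS and 78.7 to 787 CPM with bleomycin. Cacna1a and Rapsn still passed the threshold without the members that carried markers of another cell type. This does not remove free RNA from the remaining members, and the part of such RNA in both genes was not tested.

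Of the 7 lower genes, the transferrin receptor Tfrc, which brings iron into the cell, had 508, 436 and 199 CPM with PBS and 45, 86.1 and 65.6 CPM with bleomycin (log2 fold change -2.44, SE 0.376, adjusted p = 0.0482). The endothelin receptor Ednrb had 610.3, 279 and 242 CPM with PBS and 47.4, 72.9 and 52.1 CPM with bleomycin (log2 fold change -2.62, SE 0.36, adjusted p = 0.0389). Hbegf, an EGF-family growth factor, had 338, 301 and 302 CPM with PBS and 73.4, 118 and 114 CPM with bleomycin (log2 fold change -1.54, SE 0.23, adjusted p = 0.0478). The lowest PBS library was above the highest bleomycin library for each.

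The neurturin receptor Gfra2 had 125, 117 and 38.9 CPM with PBS and 4.74, 5.51 and 12.5 CPM with bleomycin (log2 fold change -3.49, SE 0.529, adjusted p = 0.0478). Cavin1, which coats caveolae, had 62.9, 50.5 and 17.5 CPM with PBS and 3.95, 3.56 and 5.62 CPM with bleomycin (log2 fold change -3.19, SE 0.473, adjusted p = 0.047). At lower levels, the lipid phosphodiesterase gene Smpdl3b had 24.6, 16.2 and 16 CPM with PBS and 3.42, 4.86 and 4.6 CPM with bleomycin. The epithelial transcription factor gene Ehf had 12.4, 16.2 and 20.4 CPM with PBS and 1.84, 2.59 and 2.55 CPM with bleomycin. Of the keratinocyte markers Krt5, Krt14 and Krt1 were also lower in members with the block, and the part of such RNA in Ehf was not tested. Without the members that carried markers of another cell type Ehf still passed the threshold. Ehf was also found in the Mmp12/Ear2 cells described below, at 66.9 ± 18.9 CPM with PBS and 55.4 ± 29.1 CPM with bleomycin (mean ± SD, n = 3). Its log2 fold change was lower in Folr2 macrophages than in those cells, by -2.19 (adjusted p = 0.0322 with edgeR). For Gfra2 and Cavin1 the library labelled SARAWT PBS 3 was the lowest PBS library.

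The SARATg libraries were not part of that fit and had the same treatments. With 1 CPM added, all 28 genes differed between SARATg bleomycin and SARATg PBS in the direction seen in SARAWT, as did 66.2% of all 10063 genes tested. The median log2 difference in SARATg was 1.57 over the 21 higher genes and -1.51 over the 7 lower genes, against median fold changes of 2.57 and -2.62 in SARAWT. The nearest to no difference was Ehf, at 13.2 CPM with PBS and 13 CPM with bleomycin. Irf7 had 148 and 437 CPM, Ctss 1143 and 3147 CPM, and Ednrb 207 and 48 CPM. With 1 library per treatment this has no replicate check.

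**Figure D3:**
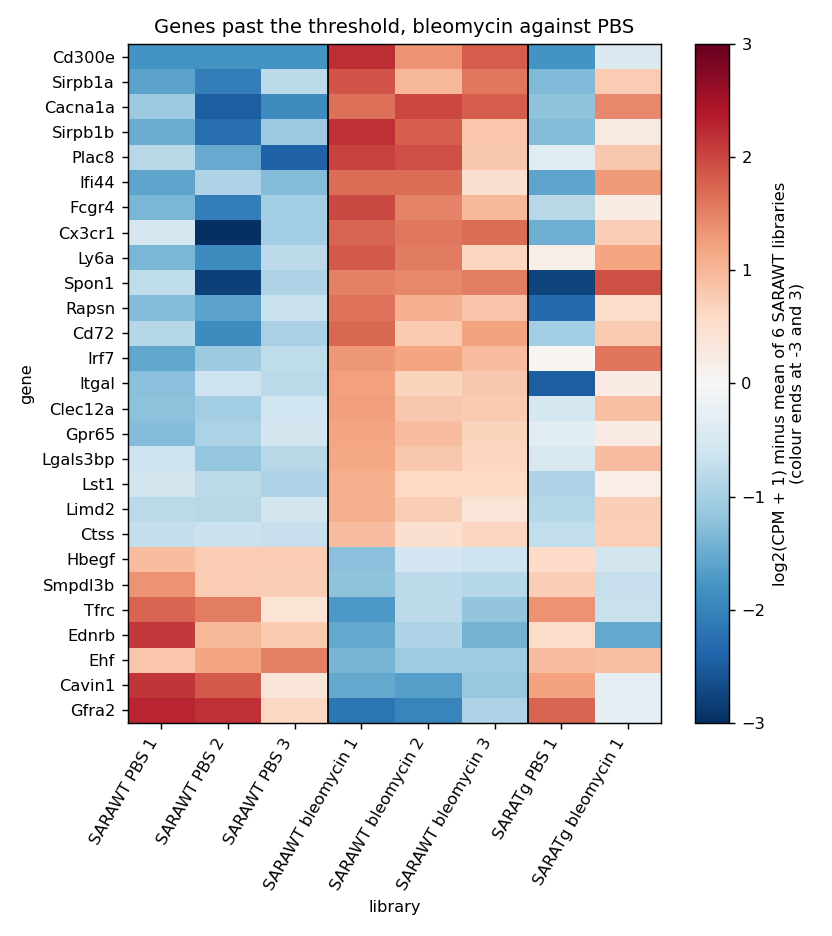
Level of 27 of the 28 genes past the threshold in members of each library, as log2(CPM + 1) minus the mean of the 6 SARAWT libraries (colours end at -3 and 3). Rows run from the largest rise (Cd300e) to the largest fall (Gfra2) in the SARAWT comparison. The 2 SARATg columns on the right were not used in that comparison and differ from each other in the same direction in all 27 rows.

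Promoters were read from RefSeq (GRCm38.p6, 250 bases before to 50 after the start site), which had an entry for 14 of the 21 higher genes and 4 of the 7 lower genes. The motif GAAA, any 2 bases, GAAA, as in interferon-response elements, was searched on both strands. It was found in 4 of the 14 higher genes, in 0 of the 4 lower genes and in 4.20% of the 8040 tested genes with an entry. Among the interferon genes of the lists below it was in 14 of 19 promoters, but neither Irf7 nor Ifi44 held it in this window. The stretches around the motif (capitals) are shown for the 4 higher genes that held it. They are Fcgr4 (chr1:171018828-171018887, plus strand), Ctss (chr3:95526740-95526785, plus strand), Sirpb1b (chr3:15575165-15575224, minus strand) and Sirpb1a (chr3:15426620-15426677, minus strand), each 5′ to 3′ on the gene's strand.
Fcgr4: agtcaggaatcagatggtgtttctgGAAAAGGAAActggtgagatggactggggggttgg
Ctss: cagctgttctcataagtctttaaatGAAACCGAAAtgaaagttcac
Sirpb1b: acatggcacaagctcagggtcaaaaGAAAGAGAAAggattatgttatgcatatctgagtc
Sirpb1a: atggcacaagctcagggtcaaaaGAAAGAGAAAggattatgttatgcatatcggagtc
The Ctss motif ended 11 bases before the RefSeq start site, that of Fcgr4 63 bases, that of Sirpb1b 124 bases and that of Sirpb1a 217 bases. GENCODE M21 starts Sirpb1a at 15426520, nearer to the motif, so the gap between the Sirpb1b and Sirpb1a distances depends on the annotation. The Sirpb1a and Sirpb1b stretches hold the same motif letters, as near-identical copies would, so they are not independent finds. A match of letters is a description and shows no binding.

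Gene lists for macrophage functions are given by their counts and medians, beside a median of -0.02 over all genes tested. The genes that chose the members (Folr2, Cbr2, Ccl8, C1qa, C1qb, C1qc and Mmp12) were left out of the lists that held them. The resident list, genes that mark dermal resident macrophages, gave 0 higher and 0 lower of 26 tested, median log2 fold change -0.89. With the replicate block 0 higher and 3 lower of 26 passed (Cd209f, Cd209g and Cd209b). Pf4 had 2806, 3567 and 2761 CPM with PBS and 1897, 2049 and 1637 CPM with bleomycin, F13a1 2735, 2027 and 1481 CPM with PBS and 958, 1332 and 859 CPM with bleomycin and Mrc1 3686, 3076 and 2895 CPM with PBS and 1534, 2087 and 1707 CPM with bleomycin. The groups did not overlap for these 3 genes, yet none passed the test over the 6 SARAWT libraries (adjusted p = 0.188, 0.167 and 0.118 with edgeR). In the fit over all 8 libraries with genotype and gene list as terms, 12 of the 30 list genes (rule genes included) were lower and 0 higher. Pf4, F13a1 and Mrc1 were among the 12. That fit called 377 of all 10717 genes tested lower. Selenop had 4003 ± 1575 CPM with PBS and 2782 ± 629.5 CPM with bleomycin.

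The Cd209 lectins, relatives of DC-SIGN, differed widely between the PBS libraries. Cd209d had 976, 663 and 60.3 CPM with PBS and 2.37, 23.6 and 20.2 CPM with bleomycin. Cd209b had 344, 230.4 and 6.8 CPM with PBS and 0.263, 1.62 and 0.255 CPM with bleomycin. Cd209f had 707, 449 and 20.4 CPM with PBS and 20.3, 13 and 0.511 CPM with bleomycin, and passed with the replicate block but not without it, at a log2 fold change of -5.00 (adjusted p = 0.000134). Cd209g had 354, 271 and 6.8 CPM with PBS and 2.63, 3.89 and 2.81 CPM with bleomycin. For all 4 genes the library labelled SARAWT PBS 3 was far below the other PBS libraries, and their mean over SARAWT libraries was more than 4 times higher on the longer gene list. They are close relatives in sequence, so reads may be shared between them. In SARATg, PBS against bleomycin was 594 against 41.8 CPM for Cd209d and 136 against 5.26 CPM for Cd209f.

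Scavenger receptors gave 2 higher and 0 lower of 24 tested, median log2 fold change 0.11 (Fcgr4 and Clec12a). With the block 5 higher and 3 lower of 24 passed, the higher ones also including Fcgr1, Clec4a3 and Marco and the lower ones being Cd209f, Cd209g and Cd209b. Fcgr1, the high-affinity IgG receptor, had 87.7, 86.9 and 104 CPM with PBS and 288, 266 and 157 CPM with bleomycin. By contrast the inhibitory IgG receptor Fcgr2b had 720.2 ± 149.6 CPM with PBS and 742 ± 46.2 CPM with bleomycin, and Clec4a1 364 ± 37.7 CPM with PBS and 508 ± 86.1 CPM with bleomycin. Cd163, the receptor for haemoglobin-haptoglobin, had 670.1, 569.9 and 553 CPM with PBS and 52.6, 364 and 135 CPM with bleomycin (adjusted p = 0.243).

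The alternative activation list, genes induced by IL-4 and IL-13, gave 0 higher and 0 lower of 17 tested, median log2 fold change -0.48. With the block 1 higher and 3 lower of 17 passed. Lower with the block were Mgl2, a galactose-type lectin, with 1280.3, 1291 and 389.7 CPM with PBS and 97.9, 314 and 178 CPM with bleomycin, the eosinophil chemokine Ccl24, with 264, 226 and 80.7 CPM with PBS and 5.53, 53.4 and 10.5 CPM with bleomycin, and the transcription factor Irf4, with 115, 143 and 52.5 CPM with PBS and 18.9, 42.4 and 26.1 CPM with bleomycin. Tgm2, a transglutaminase, was higher with the block (log2 fold change 2.76). Retnla, which encodes the secreted protein RELMα, had 3862, 1797 and 237 CPM with PBS and 155, 343 and 386 CPM with bleomycin, with overlapping groups. Over the SARAWT libraries it was more than 4 times higher on the longer gene list. SARATg PBS, on the shorter list, was not part of that ratio, and after thinning 31.2% of its members had a Retnla UMI. Clec10a had 858 ± 483 CPM with PBS and 411 ± 271 CPM with bleomycin.

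Complement genes gave 0 higher and 0 lower of 13 tested, median log2 fold change -0.29, and with the block 2 higher and 0 lower of 14 (C3 and Cfb). C3, the central complement protein, had 56.5, 66.7 and 70.5 CPM with PBS and 207, 159 and 126 CPM with bleomycin. Cfb followed the gene list, with 167, 139 and 23.3 CPM with PBS and 437, 470.2 and 49.3 CPM with bleomycin. The efferocytosis list, genes for uptake of dying cells, gave 0 higher and 0 lower of 17 tested, median log2 fold change 0.43, and with the block 4 higher and 0 lower of 17: Axl, Havcr2, Itgb5 and Cd300lf. The receptor kinase Axl had 23.6, 4.04 and 11.2 CPM with PBS and 77.9, 51.8 and 75.1 CPM with bleomycin. Its ligand gene Gas6 had 981, 663 and 490.3 CPM with PBS and 289.7, 421 and 326 CPM with bleomycin, lower in every bleomycin library but not past the test (adjusted p = 0.161). The fit over all 8 libraries called Gas6 lower. Stab1 had 263 ± 89.98 CPM with PBS and 260.1 ± 52.3 CPM with bleomycin, and Cd300ld 149 ± 44.8 CPM with PBS and 227 ± 54.4 CPM with bleomycin.

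No MHC class II gene passed of 11 tested, with a median log2 fold change of 0.02, nor did any with the block. Cd74, the invariant chain, had 13927 ± 4557 CPM with PBS and 13346 ± 1011 CPM with bleomycin. H2-Aa had 7625 ± 3713 CPM with PBS and 7088 ± 585 CPM with bleomycin, and H2-Eb1 6241 ± 2748 CPM with PBS and 5986 ± 161 CPM with bleomycin. Library SARAWT PBS 2 had the highest sum of the list, 48488 CPM, against 22979 to 38691 CPM in the other 7.

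Chemokines gave 0 higher and 0 lower of 18 tested, median log2 fold change -0.54, and with the block 2 higher and 1 lower of 21 (Ccl24). With the block Cxcl16, a membrane-bound ligand of CXCR6, was higher (103, 174 and 165 CPM with PBS and 372, 359 and 324 CPM with bleomycin), as was Cxcl13, which attracts B cells and followed the gene list (37.4, 40.4 and 2.92 CPM with PBS and 127, 414 and 24 CPM with bleomycin). The neutrophil chemokine Cxcl2 had 6649.6 ± 2985 CPM with PBS and 4305 ± 2213 CPM with bleomycin. The chemokine receptor list gave 1 higher and 0 lower of 8 tested, median log2 fold change 0.76 (Cx3cr1). Ccr2, the receptor by which monocytes leave the bone marrow, had 175, 93 and 217 CPM with PBS and 252, 268 and 277 CPM with bleomycin, and Cxcr4 303 ± 32.9 CPM with PBS and 477 ± 18.1 CPM with bleomycin, neither past the test. The fit over all 8 libraries called both higher.

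Cytokine and growth factor genes gave 0 higher and 1 lower of 28 tested, median log2 fold change 0.05 (Hbegf), and with the block 5 higher and 3 lower of 29. Of the higher genes in the blocked fit, the inflammatory cytokine Il1b had 179.9, 224 and 865 CPM with PBS and 590.03, 633 and 1588 CPM with bleomycin, so that the library labelled SARAWT PBS 3 was above SARAWT bleomycin 1 and 2. Vegfa, which drives vessel growth, had 16.6, 30.3 and 44.7 CPM with PBS and 159, 75.8 and 168 CPM with bleomycin, and Tgfb3 2.11, 0 and 0.486 CPM with PBS and 14.5, 6.8 and 9.96 CPM with bleomycin. Lower with the block were Hbegf, Il6 (39.2, 16.2 and 36.4 CPM with PBS and 4.47, 3.24 and 12 CPM with bleomycin) and the anti-inflammatory cytokine Il10 (238, 451 and 874 CPM with PBS and 82.1, 173 and 299 CPM with bleomycin). The list's highest levels were Grn, at 1419 ± 442 CPM with PBS and 1724 ± 318 CPM with bleomycin, Lgals3, at 1096 ± 343 CPM with PBS and 1801 ± 658 CPM with bleomycin, and Lgals1, at 948 ± 203 CPM with PBS and 1108 ± 138 CPM with bleomycin.

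Matrix remodelling genes gave 0 higher and 0 lower of 22 tested, median log2 fold change -0.41, and with the block 4 higher and 0 lower of 23: fibronectin (Fn1), Mmp14, Tgm2 and thrombospondin 1 (Thbs1). Thbs1 had 9.35, 4.04 and 204 CPM with PBS and 362, 278 and 1620.03 CPM with bleomycin, with its highest value of each treatment in library 3, and was more than 4 times higher on the shorter gene list. Fn1 had 58.1, 4.04 and 72.9 CPM with PBS and 156, 23 and 376 CPM with bleomycin. Dab2 had 975 ± 195 CPM with PBS and 659.8 ± 176 CPM with bleomycin, and the metalloproteinase inhibitor Timp2 872 ± 184 CPM with PBS and 597 ± 119.5 CPM with bleomycin.

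Lipid handling genes had a median log2 fold change of 0.60 over 24 genes, and Apoe and Pltp passed with the block but not without it. Apoe had 11222, 8942 and 8457 CPM with PBS and 17532, 17577 and 17302 CPM with bleomycin, a level in the bleomycin libraries that differed little between them (log2 fold change 0.96, SE 0.161, adjusted p = 0.0531 with edgeR). In SARATg it had 10632 CPM with PBS and 11277 CPM with bleomycin. The cholesterol carrier gene Npc2 had 956 ± 71.2 CPM with PBS and 1413 ± 223 CPM with bleomycin. Lysosome genes gave a median log2 fold change of 0.49 over 24 genes, with Ctss past the test, and Psap, the precursor of the saposins, was added by the block (2033, 1586 and 1891 CPM with PBS and 3373, 2683 and 3329 CPM with bleomycin). Ctsb had 4899 ± 630.2 CPM with PBS and 5327 ± 329.9 CPM with bleomycin, and Lgmn 1781 ± 510.2 CPM with PBS and 2359 ± 94.2 CPM with bleomycin.

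The iron and heme list gave 0 higher and 1 lower of 17 tested, median log2 fold change 0.03 (Tfrc), and with the block 1 higher and 3 lower of 18 (Hp higher, Tfrc, Hpgd and Mt2 lower). Heme oxygenase 1 (Hmox1) had 1412, 2071 and 749 CPM with PBS and 377, 434 and 637 CPM with bleomycin, lower in every bleomycin library but not past the test (adjusted p = 0.133). The fit over all 8 libraries called Hmox1 lower. The ferritin genes Fth1 and Ftl1 had 8261 ± 1847 CPM with PBS and 12677 ± 2796 CPM with bleomycin for Fth1 and 8279.9 ± 1308 CPM with PBS and 9473 ± 2261 CPM with bleomycin for Ftl1.

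Interferon-response genes had a median log2 fold change of 0.93 over 24 genes, of which 2 passed (Irf7 and Ifi44) and, with the block, 8. Ifi27l2a had 822, 366 and 793 CPM with PBS and 2887, 2520.3 and 1855 CPM with bleomycin, and the antiviral membrane protein gene Ifitm3 879, 889 and 698 CPM with PBS and 2029, 1974 and 1171 CPM with bleomycin. Bst2 (tetherin) had 208, 236 and 209.9 CPM with PBS and 914, 684 and 316 CPM with bleomycin. These 3 genes passed with the block but not without it. Ifi207 had 763 ± 181 CPM with PBS and 541 ± 108 CPM with bleomycin.

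Monocyte genes had a median of 0.91, with 1 of 14 higher (Plac8) and, with the block, 6 (Ly6c2, Plac8, Ms4a4c, Hp, Thbs1 and Lyz2). Ly6c2, which encodes the surface antigen that defines classical monocytes and is a close copy of Ly6c1, had 0.922, 0 and 24.3 CPM with PBS and 214, 156 and 162 CPM with bleomycin. Lysozyme (Lyz2) had 3279, 5016 and 3889 CPM with PBS and 6825, 8021 and 6226 CPM with bleomycin. In SARATg, Ly6c2 had 8.32 CPM with PBS and 197 CPM with bleomycin. The list of general macrophage genes had a median of 0.87, with 1 of 15 higher and 8 with the block, among them Fcer1g (1252, 1447 and 1337 CPM with PBS and 3167, 2679 and 2363 CPM with bleomycin) and Tyrobp (780.1, 837 and 845 CPM with PBS and 1518, 1418 and 1374 CPM with bleomycin), which encode signalling adaptors of Fc and other activating receptors.

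Immediate early and heat shock genes, which respond within minutes to stress and to tissue digestion, had a median of -0.55, with 0 higher and 0 lower of 23 and, with the block, 5 lower (Jun, Jund, Egr1, Hspa1a and Hspa1b). Their sum was 22029.5 to 29985 CPM with PBS and 12477 to 17398 CPM with bleomycin, so it moved with treatment. Whether this came from cell handling or from the treated skin was not tested, nor was its part in the other differences. Junb had 4135 ± 1244 CPM with PBS and 2359.5 ± 409 CPM with bleomycin, Ier3 1982 ± 1114 CPM with PBS and 1902 ± 1174 CPM with bleomycin and Nfkbia 1840.3 ± 258 CPM with PBS and 1184 ± 314 CPM with bleomycin.

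Targets of p53, which respond to DNA damage, gave 0 higher and 0 lower of 20 tested, median log2 fold change 0.16. With the block it was 0 higher and 0 lower of 20. The skin was harvested after the injections had ended, so the response during them was not measured. Cdkn1a (p21) had 786, 699 and 764 CPM with PBS and 610.03, 628 and 1151 CPM with bleomycin, Mdm2 389.6 ± 224 CPM with PBS and 362 ± 239 CPM with bleomycin and Gdf15 348 ± 175 CPM with PBS and 306 ± 205 CPM with bleomycin. Proliferation genes gave 0 higher and 0 lower of 19 tested, median log2 fold change 0.34, and with the block 0 higher and 0 lower of 20. Pcna had 309 ± 155 CPM with PBS and 214 ± 109.9 CPM with bleomycin, Hmgb2 204 ± 30.1 CPM with PBS and 185 ± 42.3 CPM with bleomycin and Stmn1 88.1 ± 24.9 CPM with PBS and 73.1 ± 33.8 CPM with bleomycin.

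Transcription factors of macrophages gave 0 higher and 0 lower of 23 tested, median log2 fold change 0.02, and with the block only Irf4 passed of 23. Cebpb had 1567 ± 207 CPM with PBS and 1350.4 ± 182 CPM with bleomycin and Klf4 1254 ± 387 CPM with PBS and 759.7 ± 157 CPM with bleomycin. The folate, amine and eicosanoid list gave 0 higher and 0 lower of 12 tested, median log2 fold change -0.01, and with the block 1 higher and 1 lower of 13: Pla2g7, which breaks down platelet-activating factor (207, 125 and 223 CPM with PBS and 577, 505 and 441 CPM with bleomycin), was higher and Alox5, the 5-lipoxygenase (74, 46.5 and 41.3 CPM with PBS and 18.7, 23 and 13.3 CPM with bleomycin), lower. Alox5ap had 513 ± 54.7 CPM with PBS and 545 ± 95.2 CPM with bleomycin.

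To see how members differed among themselves, every member was thinned to 1000 UMIs, which left out 21 members of SARAWT PBS, 48 of SARAWT bleomycin and 2 of SARATg, and the share with at least 1 UMI of 8 genes was taken. With 3 libraries against 3, two-sided exact permutation tests cannot go below p = 0.1, and no gene passed after adjustment over the 8 genes (lowest adjusted p = 0.2). Lyve1, a hyaluronan receptor of perivascular macrophages, was found in 16.2, 2.9 and 5.35% of members with PBS and 0.353, 1.26 and 0% with bleomycin. The 0 in SARAWT bleomycin 3 came from 299 members, which allows a share of up to 1.003% with a UMI at this depth (3 counts of the total) and sets no limit on cells that express the gene. Cd163 was found in 41, 34.8 and 29.9% with PBS and 4.95, 25.6 and 7.36% with bleomycin.

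Retnla was found in 47.5, 29 and 6.42% of members with PBS and 2.12, 2.52 and 5.02% with bleomycin. Cd209f went from 41, 21.7 and 2.14% with PBS to 0.353, 1.26 and 0% with bleomycin. For Lyve1, Cd163, Retnla and Cd209f no library of one treatment overlapped the other (exact permutation p = 0.1 each, the smallest possible). For Lyve1 and Retnla this did not hold under other choices: the groups overlapped unthinned (exact permutation p = 0.2 for Lyve1 and 0.3 for Retnla) and with a stricter gate (p = 0.2 for both). Ccl24 was found in 19, 18.8 and 4.28% with PBS and 1.41, 5.04 and 0.669% with bleomycin, where SARAWT PBS 3 was below SARAWT bleomycin 2. Unthinned and with the stricter gate the treatments did not overlap for Ccl24, nor did they for Il1b and Mki67 with the stricter gate (exact permutation p = 0.1 each).

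In T cells of 7 libraries with at least 50 such cells, thinned in the same way, no cell had a UMI of Lyve1 or Ccl24, up to 0.221% had one of Cd163, up to 1.16% of Cd209f and 0.685% to 3.49% of Retnla. The bleomycin shares of Retnla and Cd209f in members lie in or near the range in these T cells, and no level of expression is read from them. Within SARAWT bleomycin 1, 2 and 3, Retnla was in 0.685, 0.760 and 0.724% of T cells against 2.12, 2.52 and 5.02% of members. Unthinned, the mean shares with PBS and bleomycin were 21.1% and 5.94% for Lyve1, 35.3% and 10.2% for Retnla, 57.1% and 24.8% for Cd163, and 37.1% and 2.97% for Cd209f.

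Il1b was found in 8.48, 10.1 and 25.1% of members with PBS and 24.4, 21 and 34.1% with bleomycin (exact permutation p = 0.3), against 2.38% to 6.10% of T cells. H2-Ab1, a chain of MHC class II, was found in 84.8% ± 8.53 with PBS and 78.2% ± 2.18 with bleomycin (SD, n = 3 libraries each). This difference of -6.60 percentage points was -1.91 without SARAWT PBS 2 and -1.84 unthinned. Mki67, a proliferation marker, was found in 1.35% ± 1.66 with PBS and 2.12% ± 1.3 with bleomycin (SD, n = 3), against 2.91% to 10.3% of T cells, some of which divide. Its difference was 0.771 percentage points and, unthinned, 6.60. In SARATg, PBS against bleomycin was 31.2% against 3.9% for Retnla, 10.8% against 0.355% for Cd209f, 14% against 40.8% for Il1b and 2.55% against 2.84% for Lyve1.

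**Figure D4:**
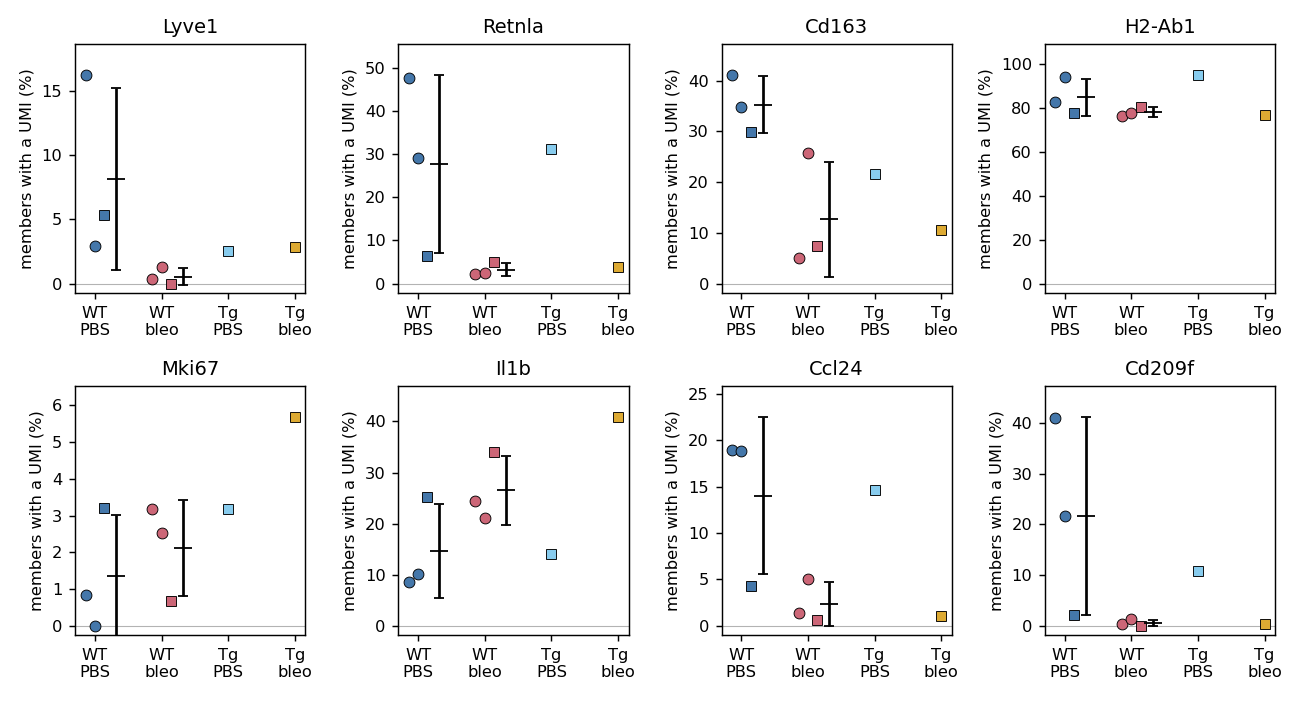
Percentage of members with at least 1 UMI of each gene after thinning to 1000 UMIs, 1 point per library (circles longer gene list, squares shorter list) with mean ± SD of the 3 SARAWT libraries. WT is SARAWT, Tg SARATg and bleo bleomycin. Lyve1, Retnla, Cd163 and Cd209f do not overlap between SARAWT PBS and SARAWT bleomycin, whereas H2-Ab1, Mki67, Il1b and Ccl24 do.

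Members with Lyve1 had less MHC class II in the library with most of them. In the library labelled SARAWT PBS 1, 153 thinned members with a Lyve1 UMI had a mean of 16.3 MHC class II UMIs per 1000, against 31.8 in the members without. In the library labelled SARAWT PBS 3 the means were 11.9 in 10 members and 24.1 in the others. The other libraries held 0 to 8 members with Lyve1. This describes cells within single libraries and was not tested.

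The next comparison asked whether the effect of bleomycin differed in Folr2 macrophages from another class of myeloid-type cells, the 3077 cells with at least 3 UMIs of Mmp12 and Ear2, at most 2 of Folr2, Cbr2 and Ccl8 and at least 1 of Csf1r (Mmp12/Ear2 cells). Cd209d, Cd209a and Gfra2 had a lower fold change in Folr2 macrophages than in these cells, and Cd52, Mpeg1, Itgal and Saa3 a higher one. Pla2g2d was near 0 in these cells, and its lower fold change rests on SARAWT PBS 1 and 2. In a fit with the library as a block, 23 of 11177 genes had a higher (0.206%) and 27 a lower (0.242%) log2 fold change in Folr2 macrophages (edgeR, adjusted p of 0.05), and 1134 had an unadjusted p under 0.05. Leaving out 1 library at a time, 7 genes passed without the one labelled SARAWT PBS 1 and 1 (Igfbp6) without SARAWT PBS 2. It was 165 without the one labelled SARAWT PBS 3 and 4 (Areg, Asgr2, Prune2 and Saa3) without SARAWT bleomycin 1. Without SARAWT bleomycin 2 it was 57 (34 of the 50 kept) and without SARAWT bleomycin 3 it was 45 (26 kept). Without both libraries whose labels are in doubt 47 of the 50 kept their direction. SARAWT PBS is then 1 library and its spread is not measured, so no count of genes is read from that fit. SARAWT PBS 2 held 32 Mmp12/Ear2 cells.

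Of the lectins, Cd209d in Folr2 macrophages had 976, 663 and 60.3 CPM with PBS and 2.37, 23.6 and 20.2 CPM with bleomycin, and in Mmp12/Ear2 cells 734, 590.4 and 454 CPM with PBS and 526, 664 and 645 CPM with bleomycin. The difference in log2 fold change was -4.77 (SE 0.871, adjusted p = 0.043 with edgeR). Cd209a, a dendritic cell gene in the lists of other cell types, had 267 ± 217 and 6.28 ± 4.73 CPM (PBS and bleomycin, mean ± SD, n = 3) in Folr2 macrophages and 769 ± 198 and 578 ± 143 CPM in Mmp12/Ear2 cells. Over the SARAWT libraries both genes were more than 4 times higher on the longer gene list in Folr2 macrophages. SARATg PBS, on the shorter list, was not part of that ratio.

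Gfra2 had 93.8 ± 47.8 and 7.59 ± 4.29 CPM in Folr2 macrophages with PBS and bleomycin and 103 ± 21.3 and 53.1 ± 4.71 CPM in Mmp12/Ear2 cells. The secreted phospholipase Pla2g2d had 102 ± 87.3 and 1.05 ± 1.09 CPM in Folr2 macrophages and 0.137 ± 0.154 and 0.468 ± 0.81 CPM in Mmp12/Ear2 cells. It was found almost solely in SARAWT PBS 1 and 2 (155, 149.5 and 0.972 CPM in PBS libraries 1 to 3). In SARAWT bleomycin 3 it had 2.30 CPM in Folr2 macrophages. It passed the filter on low counts only with both classes together. Gelatinase B (Mmp9) had 19.5 ± 15.2 and 1.5 ± 1.36 CPM in Folr2 macrophages and 0.144 ± 0.25 and 5.29 ± 4.4 CPM in Mmp12/Ear2 cells. Asgr2, a lectin that binds galactose, had 15 ± 7.22 and 5.51 ± 3.93 CPM and 9.99 ± 3.96 and 79.9 ± 16.3 CPM, with its larger difference in Mmp12/Ear2 cells. Stac2 had 21.2 ± 13.7 and 1.98 ± 0.817 CPM and 20.5 ± 3.74 and 17 ± 2.8 CPM, and E-cadherin (Cdh1) 6.5 ± 1.42 and 0.448 ± 0.522 CPM and 40.7 ± 10.5 and 41.1 ± 1.7 CPM. Prune2 had 58.2 ± 16.1 and 56.5 ± 21 CPM in Folr2 macrophages and 0.346 ± 0.312 and 7.43 ± 3.98 CPM in Mmp12/Ear2 cells. Itih5 and Dqx1 averaged under 20 CPM in both classes and both treatments.

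Of the genes with a higher fold change in Folr2 macrophages, Cd52, a small surface glycoprotein of leukocytes, had 183 ± 88.1 and 754 ± 178 CPM with PBS and bleomycin against 1385 ± 175 and 1793 ± 133 CPM in Mmp12/Ear2 cells. The pore-forming protein gene Mpeg1 (perforin-2) had 257 ± 49 and 599 ± 74.3 CPM against 482 ± 85.8 and 430.3 ± 53.1 CPM, and Itgal 8.35 ± 1.99 and 31.4 ± 6.67 CPM against 17.3 ± 4.52 and 20.7 ± 3.86 CPM. The acute phase gene Saa3 had 53.4, 24.9 and 491 CPM in bleomycin libraries 1 to 3 of Folr2 macrophages and at most 7.99 CPM in Mmp12/Ear2 cells, with most of it in SARAWT bleomycin 3. The scavenger receptor Marco had 5.61 ± 5.94 and 24 ± 13.2 CPM against 34 ± 23.4 and 12.8 ± 9.27 CPM. The activating receptor gene Klrk1 (NKG2D) had 1.74 ± 2.08 and 25.5 ± 13.6 CPM against 16.6 ± 11 and 46.1 ± 10.6 CPM.

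Smad7, an inhibitor of TGF-β signalling, had 33.8 ± 5.75 and 71.8 ± 24.5 CPM with PBS and bleomycin in Folr2 macrophages and 91.9 ± 24.3 and 62.6 ± 10.5 CPM in Mmp12/Ear2 cells. Also with a higher fold change were Stap1 (20.3 ± 11.9 and 40.1 ± 5.24 CPM against 71.4 ± 18.3 and 37.3 ± 2.77 CPM), Cpd (50.4 ± 3.71 and 82 ± 20.5 CPM against 28.1 ± 4.77 and 15.5 ± 4.87 CPM) and Lmnb1 (28.7 ± 27 and 126 ± 79.5 CPM against 81 ± 40.2 and 106 ± 33 CPM). Bcl2a1a, 1 of several near-identical copies, and Gpr171 had 9.75 ± 3.87 and 35.9 ± 11.3 CPM and 1.65 ± 2.01 and 9.68 ± 2.2 CPM in Folr2 macrophages. The members' own marker Pf4 was also past the threshold, with a difference of -1.15 on the log2 scale. Against all other C1q cells in place of Mmp12/Ear2 cells, 9 genes passed: Bcl2a1a, Bcl2a1b, Ccl3, Clec4b1, Gpr65 and Ramp1 with a higher and Itih5, Postn and Thbd with a lower fold change in Folr2 macrophages. Of the 50 genes, 49 were tested there, of which 4 passed and 47 kept their direction. Cd209d, Cd209a, Gfra2, Pla2g2d, Cd52, Mpeg1, Itgal and Saa3 were not among the 9, so the differences given for them are those from Mmp12/Ear2 cells.

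**Figure D5:**
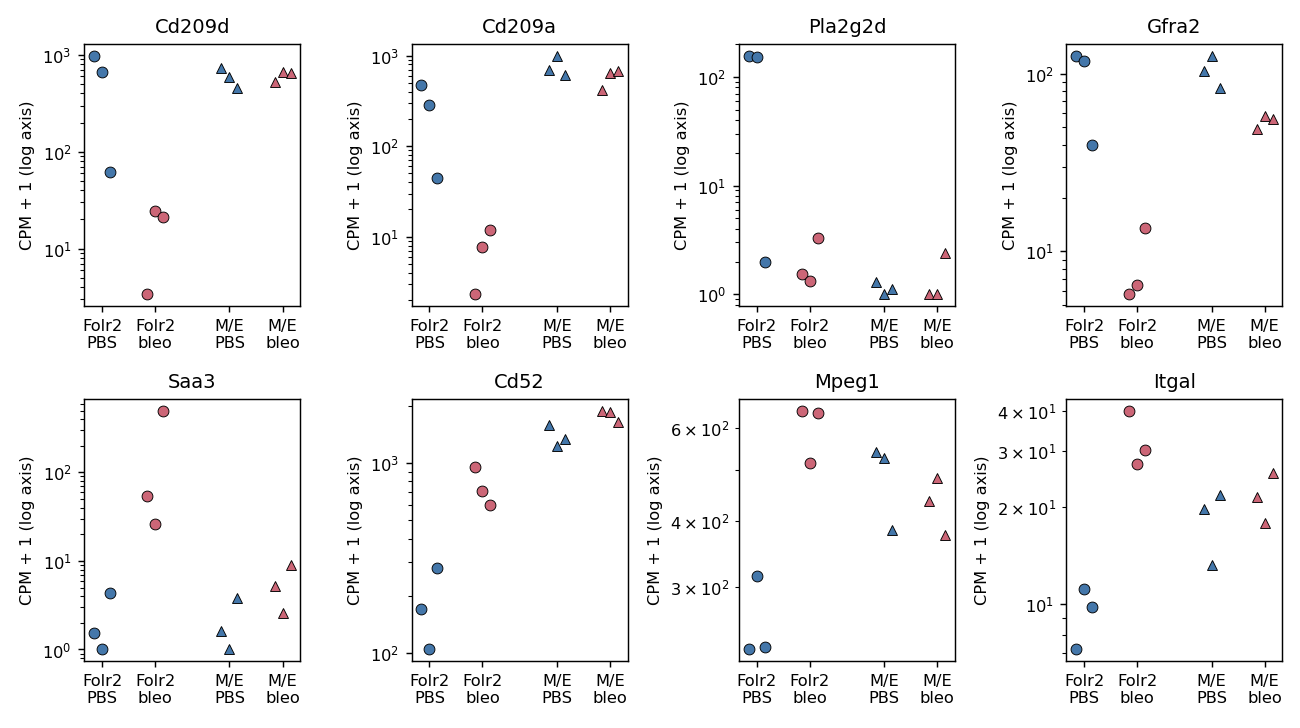
CPM + 1 (log axis) of 8 genes in Folr2 macrophages (circles) and Mmp12/Ear2 cells (M/E, triangles) of the SARAWT libraries, PBS in blue and bleomycin in red, 1 point per library. Cd209d, Cd209a, Pla2g2d and Gfra2 have a lower fold change in Folr2 macrophages than in Mmp12/Ear2 cells, and Saa3, Cd52, Mpeg1 and Itgal a higher one.

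For the genotype, SARATg was compared with SARAWT in a fit over all 8 libraries with treatment and gene list as terms. No gene passed, with 0% of 10717 genes higher and 0% lower in SARATg (edgeR), 538 with an unadjusted p under 0.05 and 7 genes past the threshold with DESeq2 (Cd209f, Hal and Krt77 higher, Ctsl, Cxcl2, Cxcl3 and Plin2 lower). With 1 SARATg library per treatment, the fit assumes that these vary like the SARAWT libraries, and the labels of SARAWT PBS 1 and 3 are in doubt. Without those 2 libraries 50 genes passed, 34 higher and 16 lower. Without SARAWT bleomycin 3 it was 19 genes. Without the library labelled SARAWT PBS 3 alone 3 genes passed, of which 1 was Zfyve9 (log2 difference 4.60), besides Stfa3 and Igfbp5. The gene list of both SARATg libraries has no human entry, so this difference cannot be assigned to the mouse gene or the human cDNA. Without the library labelled SARAWT PBS 1 alone Cd209f and Gm12166 passed.

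Values with the lowest unadjusted p are given for genes that did not pass. Cd209f had a log2 difference of 2.84 (SE 0.355, adjusted p = 0.156 with edgeR), from 136 CPM in SARATg PBS against 707, 449 and 20.4 CPM in SARAWT PBS 1 to 3, of which only the last is on the same gene list. The monoglyceride lipase gene Mgll had 172 CPM in the library labelled SARAWT PBS 3 and at most 3.42 CPM in the others. Hal had 2111 CPM in SARATg PBS and 626 CPM in SARATg bleomycin, against 1711, 1734 and 749.8 CPM and 439, 475 and 347 CPM in the SARAWT libraries. The other genes were Cxcl3 (log2 difference -2.83), Slc7a11 (-1.62), Ctsl (-0.83), Plin2 (-0.92), Slc12a7 (0.81) and Cxcl2 (-0.93), with adjusted p between 0.708 and 0.942. Over the SARAWT libraries Cxcl3, Mgll, Slc7a11 and Cd209f differed by more than 4 times between the gene lists. Krt77, a keratinocyte keratin, had 37.5 and 15.2 CPM in SARATg PBS and bleomycin and 13.8 CPM in SARAWT PBS 1, and was at 0 in the other 5 libraries.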

How the data were processed

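Deposited counts were whole numbers of UMIs per gene and barcode from 10x Genomics 3′ libraries, made by the authors with Cell Ranger (4.0.0 or 3.1.0 by the file headers, 3.0.2 in the submitters' processing notes, build mm10) and not normalized. The 9 kidney libraries were not used here. The 2 gene lists were joined by 30406 Ensembl identifiers. UMIs were summed over members per library and tested by the quasi-likelihood method of edgeR 4.0.16 (two-sided, genes kept by filterByExpr, TMM scaling) in R 4.3.3 with limma 3.58.1, with DESeq2 1.42.0 as an alternative, and shares with exact permutation tests (scipy 1.17.1, numpy 2.4.6, pandas 2.3.3, Python 3.11.15, matplotlib 3.10.9). Doublets were not called: members with at least 3 of 5 markers of another cell type were left out in an alternative of the shares and of bleomycin against PBS only. Coordinates are from GENCODE M21. Members and gene lists (434 of 436 genes matched) were chosen with earlier results of these data known.

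Named are the genes of the rule and markers, Zfyve9, up to 12 genes per direction and comparison (non-overlapping, at least 10 CPM), list genes past the threshold with the 3 highest of each list, and where fewer than 10 passed, the 10 lowest p (at least 20 CPM). A few genes that met these rules are not reported here. Other list genes are named where the blocked fit called them, and Pf4 and single examples were chosen after their values were seen. Same-numbered SARAWT libraries had r = 0.114, 0.244 and 0.429 between their deviations, and the numbers were taken as pairs. PBS 1 had a higher r with bleomycin 2 (0.228) than with bleomycin 1. Pairing and gene list were therefore not separated, and the results with the block rest on this choice. Each test across genes was tested on simulated data. The share of false calls stayed under the threshold for bleomycin against PBS (4.79%). It was above the threshold for the genotype (11%) and for the difference between classes (13.6%).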

Additional observations from a re-analysis of the deposited data

Results flagged for a closer look

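The effect of bleomycin differed between Folr2 macrophages and Mmp12/Ear2 cells in 50 genes by the test of the difference itself. On simulated data 13.6% of the calls of this test were false, which is above its threshold. Among the named genes with a lower fold change in Folr2 macrophages, the difference in log2 fold change was -4.77 for Cd209d, -4.57 for Cd209a, -4.20 for Asgr2, -3.66 for Prune2, -2.45 for Gfra2, -2.75 for Stac2 and -3.38 for Cdh1. It was -9.59 for Itih5, -6.75 for Pla2g2d, -6.44 for Mmp9 and -5.64 for Dqx1. With a higher fold change in Folr2 macrophages, it was 5.13 for Saa3, 3.65 for Marco, 3.23 for Klrk1, 2.16 for Gpr171, 2.01 for Itgal and 1.93 for Stap1. It was 1.82 for Lmnb1, 1.82 for Smad7, 1.80 for Cd52, 1.67 for Bcl2a1a, 1.65 for Cpd and 1.49 for Mpeg1. Itih5, Pla2g2d, Mmp9, Dqx1, Prune2, Stac2, Cdh1, Saa3, Klrk1 and Gpr171 averaged under 2 CPM in at least 1 class and treatment, and for such genes the size of the difference depends on the prior count of the fit. In Mmp12/Ear2 cells of SARAWT bleomycin 1, 2 and 3, Itih5 had 22.6, 0.457 and 5.72 CPM and Dqx1 45.6, 8.90 and 2.48 CPM.

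SARA RNA was high in members of 2 libraries labelled SARAWT, both of which are among the 3 SARAWT PBS controls. The human ZFYVE9 entry had 1065 CPM in the library labelled SARAWT PBS 1, and mouse Zfyve9 had 630.3 CPM in the library labelled SARAWT PBS 3, where no human entry is listed.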

How the results depend on the processing

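For bleomycin against PBS, 28 genes became 310 with DESeq2, 402 with no filter on low counts, 275 with the replicate block, 486 with the gene list as a covariate, 845 over all 8 libraries and 64 without mixed cells. Chosen after seeing the data, the longer gene list alone gave 977 genes. Leaving out the libraries labelled SARAWT PBS 1 and 3, also chosen after seeing the data, left 1 PBS library, so no count is read from it. Leaving out 1 library gave 0 to 212 genes. Size factors by RLE, a stricter gate, a stricter filter on cells, no shared barcodes and thinning gave 30 to 34, but 3 of the 28 calls were lost with the stricter gate, 5 of 27 tested without shared barcodes and 4 of 18 tested after thinning. The 28 genes kept their direction under each of these where they were tested, and the cause of the differences in number was not tested. The block ended no call of these 28.

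For the genotype, 0 genes became 7 with DESeq2, 202 with no filter, 50 without the libraries labelled SARAWT PBS 1 and 3, and 0 to 19 with 1 library left out. For the difference between classes, 50 genes became 98 with DESeq2 and 476 with no filter. They became 9 against other C1q cells (4 of the 49 calls tested there were kept) and 1 to 165 with 1 library left out. The share among C1q cells stayed lower with bleomycin under each alternative (-33.2 to -14.7 percentage points with 1 library left out). The difference in the share among kept cells ranged from -6.43 to 3.28 percentage points with 1 library left out. It turned positive at 3.28 without SARAWT PBS 1 and at 0.554 without SARAWT bleomycin 3. With the rule applied after thinning to 2000 UMIs it was -6.21, and with the stricter filter on cells -3.52, against -2.22 in the main setting. The 8 states kept their direction under each alternative, but for Lyve1 and Retnla the treatments overlapped without thinning and with the stricter gate, whereas they separated under both for Ccl24 and with the stricter gate for Il1b and Mki67. SARAWT PBS 2 held 77 members, which limits its shares.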

Other observations

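MHC class II varied between members of each library. After thinning to 1000 UMIs, the median member had 21 to 47 UMIs of MHC class II genes per library. Members with under 10 such UMIs were 21.5%, 4.35% and 26.7% in SARAWT PBS 1, 2 and 3 and 28.6%, 28.2% and 25.8% in the bleomycin libraries. In SARATg they were 5.1% with PBS and 31.9% with bleomycin. The cut at 10 UMIs was set after seeing the data, the SARAWT groups overlapped, and no test was made.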
